A study of Homo sapiens with 6 samples.

Results

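The BCL2 family decides whether a cell permeabilises its mitochondrial outer membrane and enters intrinsic apoptosis. Pro-survival members such as BCL2, BCL2L2 (BCL-W) and MCL1 hold the effectors BAX and BAK1 in check. BH3-only members such as BID, BCL2L11 (BIM), PMAIP1 (NOXA), BBC3 (PUMA) and BMF bind the pro-survival proteins or activate the effectors. Human embryonic stem cells (hESCs) are known to enter apoptosis readily when dissociated or damaged. The 10 genes named here were taken by symbol from the 61155 gene symbols of the count table, and all 10 were found there and passed the filter on low counts.

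Bulk RNA sequencing compared undifferentiated WT H7 cells, an established hESC line, with S6K1-/- H7 cells derived from it by CRISPR/Cas9, in 3 libraries per group. The guides targeted exons 9 and 11 of RPS6KB1, which encodes the kinase S6K1, and both groups were grown without feeders on Matrigel in TeSR-E8 medium. GEO's labels call the S6K1-/- group a knockdown and give both groups a time of week 5, although they also mark the cells as undifferentiated, and the methods describe a knockout. All S6K1-/- libraries come from 1 clone, so an effect of the genotype and a difference between clones cannot be told apart. No batch is labelled, nor whether the libraries of a group come from separate cultures, so that p-values measure only the spread between these libraries.

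Library totals ranged from 21896698 to 24473013 counts. The targeted gene, RPS6KB1, had 33.3 ± 0.994 CPM (counts scaled to a common library size with TMM factors) in WT and 19.8 ± 0.371 CPM in S6K1-/- libraries (SD, n = 3 each), with no overlap. Of 12 pluripotency markers all were tested, and DNMT3B was the only one to pass the threshold, falling by 0.35 on the log2 scale. Under 0.05 were also SALL4 and TDGF1 with log2 fold changes of -0.17 and -0.15 and ZFP42 with one of 0.17 (edgeR adjusted p = 0.00566, 0.0308 and 0.00874), and 7 of the 12 had non-overlapping groups, 6 lower and 1 higher, against 30.7% of all genes. The summed level of the list was from 6925 to 7125 CPM in WT and from 6489 to 6562 CPM in S6K1-/- libraries. Of 30 markers of neuroectoderm, mesoderm, endoderm, amnion and fibroblasts, 15 were tested and 12 had at most 3 counts in every library. At an edgeR adjusted p under 0.001, which 3.96% of all genes tested passed, PAX6 was higher and PDGFRB lower in S6K1-/- hESCs. Within the neuroectoderm list the directions differed, since the log2 fold changes were 0.76 for PAX6 and 1.29 for SOX1 but -0.85 for MAP2 and -0.14 for ZIC1 (edgeR adjusted p = 2.69e-04, 0.0174, 0.00735 and 0.238). FOXA2 of the endoderm list and KRT7 of the amnion and trophoblast list had log2 fold changes of -0.88 and -0.82, just outside the threshold (edgeR adjusted p = 0.00108 and 0.00103). The summed level of the endoderm markers was from 8.09 to 11.1 CPM in WT and from 4.46 to 5.54 CPM in S6K1-/- libraries, with SOX17 and GATA6 at no more than 2 counts in any library, and that of the amnion and trophoblast markers from 5.60 to 7.20 and from 3.72 to 4.09 CPM. The mesoderm sum was higher, from 15.9 to 16.8 CPM in WT and from 17.5 to 19.2 CPM in S6K1-/- libraries. The neuroectoderm and fibroblast sums overlapped between the groups, but each was made up mostly of its most abundant gene. THY1 had a mean of 487.6 CPM in WT, where the fibroblast sum was from 482.6 to 505.7 CPM, and 480.0 CPM in S6K1-/- hESCs. PDGFRB of that list fell from a mean of 7.90 to 3.11 CPM (log2 fold change -1.34), which the sum does not show. ZIC1 had a mean of 17.6 CPM in WT, where the neuroectoderm sum was from 25.1 to 26.5 CPM. The part of such cells, or of a shift in the pluripotency markers, in the values below was not tested, and in bulk RNA fewer cells of a type and less RNA per cell cannot be told apart.

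The sequence that ties the family together is the BH3 core, part of a region involved in binding between members. It consists of 6 residues, a leucine, 3 variable positions, and then glycine and aspartate. A search of the canonical coding sequences of GENCODE 44 found this pattern once in each of 7 members, and in 13.7% of 19701 coding sequences in all. With methionine allowed for the leucine or alanine for the glycine, each of the other 3 members, BCL2L2, BBC3 and BMF, held it once as well, as did 29.0% of all coding sequences. The coding strands are shown 5′ to 3′ on GRCh38 because they show the members side by side at their shared element, and capitals mark the codons for the leucine position and for the glycine and aspartate positions.
BCL2, chr18:63318361-63318378, minus strand: CTCcgccaggccGGCGAC
BCL2L2, chr14:23307903-23307920, plus strand: ATGcgggcagctGGAGAT
MCL1, chr1:150578877-150578894, minus strand: TTAcgacgggttGGGGAT
BAX, chr19:48955787-48955804, plus strand: CTCaagcgcatcGGGGAC
BAK1, chr6:33575399-33575416, minus strand: CTCgccatcatcGGGGAC
BID, chr22:17739427-17739444, minus strand: CTCgcccaggtcGGGGAC
BCL2L11, chr2:111150103-111150120, plus strand: TTGcggcgtattGGAGAC
PMAIP1, chr18:59902673-59902690, plus strand: CTCaggagatttGGAGAC
BBC3, chr19:47226591-47226608, minus strand: CTGcggcggatgGCGGAC
BMF, chr15:40104207-40104224, minus strand: CTTcagtgcattGCAGAC

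In each member the 18 bases lay within a single coding exon. BCL2L2 carries a methionine codon in the first position, and BBC3 and BMF an alanine codon in place of glycine.

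To see which members these hESCs express most, levels were compared per length, as CPM per kilobase of exons over all transcripts in GENCODE 44. PMAIP1, a BH3-only gene whose protein binds MCL1, was highest, at 106 ± 9.11 in WT and 106 ± 6.37 CPM per kilobase in S6K1-/- hESCs (SD, n = 3 each), the 98.4th percentile of 15926 genes. MCL1 followed with 47.1 ± 0.470 and 44.7 ± 0.882 CPM per kilobase. The effectors BAX and BAK1 came next, with 36.7 ± 0.933 and 20.3 ± 0.886 CPM per kilobase in WT. BMF with 8.82 ± 0.254 and BBC3 with 7.93 ± 0.210 CPM per kilobase in WT stood well below them. BID ranged from 4.32 to 5.76, BCL2L2 from 4.39 to 4.88 and BCL2L11 from 4.38 to 4.77 CPM per kilobase over the 6 libraries. On this length these 3 genes did not differ beyond their spread. BCL2, which gave the family its name, was the lowest at 0.491 ± 0.0397 CPM per kilobase in WT, at the 14.7th percentile. With the length of the longest single transcript in place of all exons, BAX moved above MCL1 and BBC3 above BMF, while PMAIP1 stayed highest and BCL2 lowest. The means of BID, BCL2L2 and BCL2L11 were then 8.76, 6.25 and 5.92 CPM per kilobase, so that their likeness depends on the length chosen.

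Expressed as a share of the summed level of the 10 members per kilobase, PMAIP1 took from 41.5% to 45.8% of a library, MCL1 from 18.5% to 20.4% and BAX from 14.5% to 16.1%. The 5 BH3-only genes together held 54.7% ± 1.96 in WT and 55.2% ± 1.17 in S6K1-/- hESCs (SD, n = 3 each). The effectors held 23.6% ± 1.27 and 23.8% ± 0.980, and the 3 pro-survival genes 21.6% ± 0.876 and 20.9% ± 0.441. For each of these roles the ranges of the groups overlapped. The shares cover only the 10 members and leave out BOK and BCL2L1, family genes described below. Their mean levels over both groups were 25.5 and 13.9 CPM per kilobase, with log2 fold changes of 0.83 and -0.27. The share of PMAIP1 was 38.1% and that of BAX and BAK1 together 28.2% with the longest transcripts, so that these shares depend on the length chosen.

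**Figure D1:**
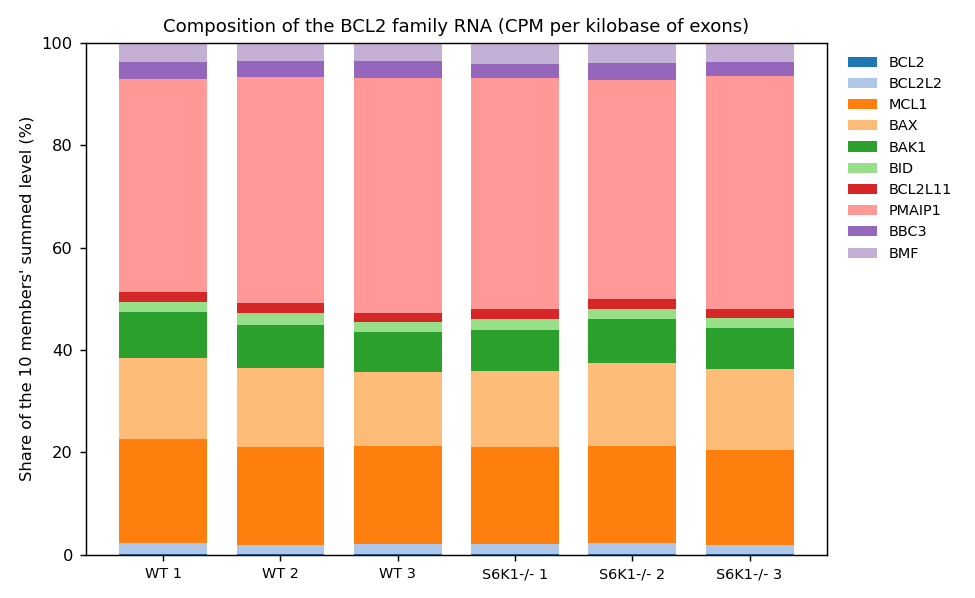
Share of each of the 10 members in their summed level (CPM per kilobase of exons, in %) for each WT and S6K1-/- library, as stacked bars. PMAIP1, MCL1, BAX and BAK1 fill most of every bar, and the bars of the groups look alike, with PMAIP1 between 41.5% and 45.8%.

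With edgeR's quasi-likelihood F test, Benjamini-Hochberg adjusted over 19521 genes, 0 of the 10 members were lower and 0 were higher in the S6K1-/- group past the study's threshold, an adjusted p of 0.001. Among all genes tested, 2.54% were lower and 1.42% higher, 3.96% in either direction, so that a count of 0 in 10 lies near the background and is not a result about the family. With the threshold at 0.05 none of the members passed either, where 8.31% of all genes were lower and 5.47% higher, 13.8% in all. At an unadjusted edgeR p under 0.05 there were 2, BBC3 and BMF, where 26.4% of all genes were. DESeq2's Wald test gave 1, BBC3 (unadjusted p = 0.0277), with BMF at 0.0883. The share of all genes under 0.05 in that test is not given here, so that this count has no background beside it. The median log2 fold change of the members was -0.036 and the median size of the change 0.065, against -0.0024 and 0.11 over all genes tested. The difference was below 0 for 7 members and above 0 for 3, although the sign of PMAIP1, BAX and BCL2L2, all near 0, changed with the scaling or with 1 library left out.

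Over the 10 members, the 95% intervals of the fold (S6K1-/- over WT) ran from a lowest bound of 0.766 for BCL2 to a highest bound of 1.14 for BMF. At the standard error each gene had, a log2 difference between 0.22 for MCL1 and 0.60 for BCL2 would have been needed to pass the threshold, that is a fold of 1.16 to 1.51. Smaller observed differences would not have passed this threshold at those standard errors, with 3 libraries a group.

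**Figure D2:**
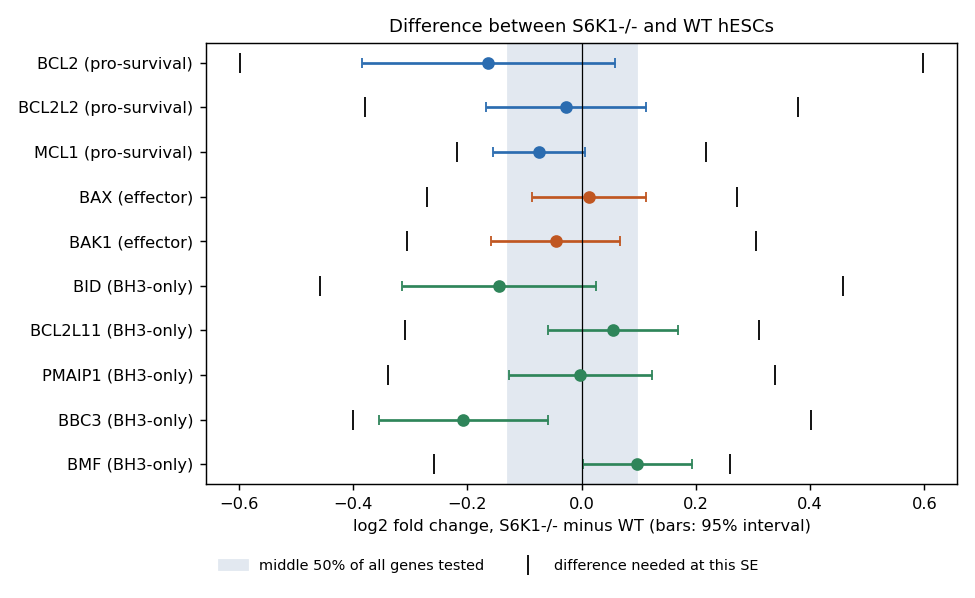
Log2 fold change of each member (S6K1-/- minus WT, points) with its 95% interval (horizontal bars), coloured by role. Black ticks mark the difference needed to pass an adjusted p of 0.001 and the grey band holds the middle 50% of all genes tested, from -0.13 to 0.097, and no point reaches its tick.

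Among the pro-survival genes, MCL1 (chr1:150560895-150579738) encodes a short-lived protein that binds BAK1 and several BH3-only proteins. It had 293.5, 289.7 and 295.5 CPM in WT and 274.7, 275.1 and 284.4 CPM in S6K1-/- libraries. All S6K1-/- libraries lay below all WT libraries, and MCL1 was the member with the smallest standard error, 0.038. Its log2 fold change was -0.075 (95% interval -0.16 to 0.0054, edgeR adjusted p = 0.224). ADAMTSL4-AS1 on the same strand shares 5.27% of its exonic bases and ADAMTSL4 on the opposite strand 0.691%, and these had log2 fold changes of -0.44 and -0.40 (edgeR adjusted p = 0.161 and 0.00891).
BCL2 (chr18:63123346-63320128) had 6.70, 5.69 and 6.20 CPM in WT and 5.66, 5.60 and 5.33 CPM in S6K1-/- libraries. The groups did not overlap, but WT replicate 2 and S6K1-/- replicate 1 were nearly equal. With a mean of 138 counts per library, counting error alone gives a coefficient of variation of 8.50%, against 8.07% seen in WT, and the log2 fold change of -0.16 had an interval from -0.38 to 0.058. Without WT replicate 1, the highest library, it was -0.095, and without WT replicate 2 it was -0.22.
BCL2L2 (chr14:23298790-23311751), a close relative of BCL2, had 22.5 ± 0.996 CPM in WT and 22.1 ± 1.34 CPM in S6K1-/- hESCs (SD, n = 3 each). The libraries of the groups overlapped, and the log2 fold change was -0.026 (95% interval -0.17 to 0.11), and from -0.077 to 0.013 with 1 library left out. A read-through gene that joins BCL2L2 with PABPN1 shares 16.8% of its exonic bases and had at most 1 count per library, while PABPN1 itself had from 2141 to 2744. On the opposite strand HOMEZ and PPP1R3E share 3.08% and 6.51% of those bases, with log2 fold changes of -0.33 and -0.49 (edgeR adjusted p = 0.0261 and 0.0128).

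BAX and BAK1, whose proteins form the pores in the mitochondrial outer membrane, had a median size of change of 0.029 on the log2 scale, against 0.075 for the pro-survival and 0.098 for the BH3-only genes. These medians cover 2, 3 and 5 genes with standard errors from 0.038 to 0.10, and a difference between the roles was not tested. BAX (chr19:48954815-48961798) had 94.0, 97.7 and 93.2 CPM in WT and 89.6, 97.1 and 100.9 CPM in S6K1-/- libraries. The S6K1-/- libraries lay on both sides of the WT libraries, and the log2 fold change was 0.013 (95% interval -0.087 to 0.11, edgeR adjusted p = 0.900). BAK1 (chr6:33572547-33580293) had 44.8 ± 1.96 CPM in WT and 43.4 ± 2.00 CPM in S6K1-/- hESCs (SD, n = 3 each), with a log2 difference of -0.045 (95% interval -0.16 to 0.067), which ranged from -0.0063 without S6K1-/- replicate 1 to -0.074 without WT replicate 3. A pseudogene copy, BAK1P1, had between 6 and 19 counts per library, against a mean of 1040 for BAK1, and GGNBP1, opposite to 4.11% of its exonic bases, had a log2 fold change of -0.053.

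Of the BH3-only genes, BBC3 (chr19:47220822-47232766), whose product binds all pro-survival proteins, had the largest difference of any member. It had 24.73, 25.02 and 26.00 CPM in WT and 20.1, 24.1 and 21.4 CPM in S6K1-/- libraries. Every S6K1-/- library was below every WT library, with S6K1-/- replicate 2 close to WT. The log2 fold change was -0.21 (95% interval -0.36 to -0.059, edgeR adjusted p = 0.0626), a fold of 0.866. Over the 12 alternatives the log2 fold change ranged from -0.28 without S6K1-/- replicate 2 (edgeR adjusted p = 0.0181) to -0.15 without S6K1-/- replicate 1 (edgeR adjusted p = 0.260), and the adjusted p of DESeq2's Wald test was 0.187. MIR3190, opposite to 2.51% of BBC3's exonic bases, had at most 17 counts per library. In size the difference of BBC3 exceeded that of 13658 of the 19521 genes tested.
BMF (chr15:40087890-40108892), whose protein is held by the cytoskeleton in unstressed cells, had 48.0, 46.7 and 49.4 CPM in WT and 52.0, 51.2 and 51.0 CPM in S6K1-/- libraries. It was the only member whose S6K1-/- libraries were all above the WT libraries, with a log2 fold change of 0.098 (95% interval 0.0020 to 0.19, edgeR adjusted p = 0.181). BMF-AS1, on the opposite strand, shares 8.46% of BMF's exonic bases and had 7.75 ± 0.619 CPM in WT and 8.19 ± 0.215 CPM in S6K1-/- hESCs (SD, n = 3 each).
PMAIP1 (chr18:59899996-59904305) had 209.7, 236.1 and 248.7 CPM in WT and 229.9, 217.9 and 245.7 CPM in S6K1-/- libraries. WT replicate 1 was the lowest and WT replicate 3 the highest of all. The means were 231.5 and 231.2 CPM, and the log2 fold change was -0.0024 (95% interval -0.13 to 0.12). Its coefficient of variation within WT was 8.61%, where counting error alone gives 1.36%.
BID (chr22:17734138-17774770), which links death receptors to mitochondria after cleavage by caspase-8, had 20.8, 25.5 and 22.6 CPM in WT and 21.8, 19.1 and 21.4 CPM in S6K1-/- libraries. The groups overlapped, and the log2 fold change was -0.14 (95% interval -0.31 to 0.025). WT replicate 2 was the highest library and S6K1-/- replicate 2 the lowest, and without them in turn the log2 fold change was -0.061 and -0.084, against -0.20 without WT replicate 1.
BCL2L11 (chr2:111119378-111168444), a direct activator of BAX and BAK1 and a FOXO target, had 30.04 ± 0.581 CPM in WT and 31.2 ± 0.842 CPM in S6K1-/- hESCs (SD, n = 3 each), with a log2 difference of 0.055 (95% interval -0.059 to 0.17), or 0.034 without S6K1-/- replicate 1. The antisense gene MIR4435-2HG shares 10.8% of its exonic bases and had between 157 and 277 counts per library, with a log2 fold change of -0.43 (edgeR adjusted p = 0.00753).

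**Figure D3:**
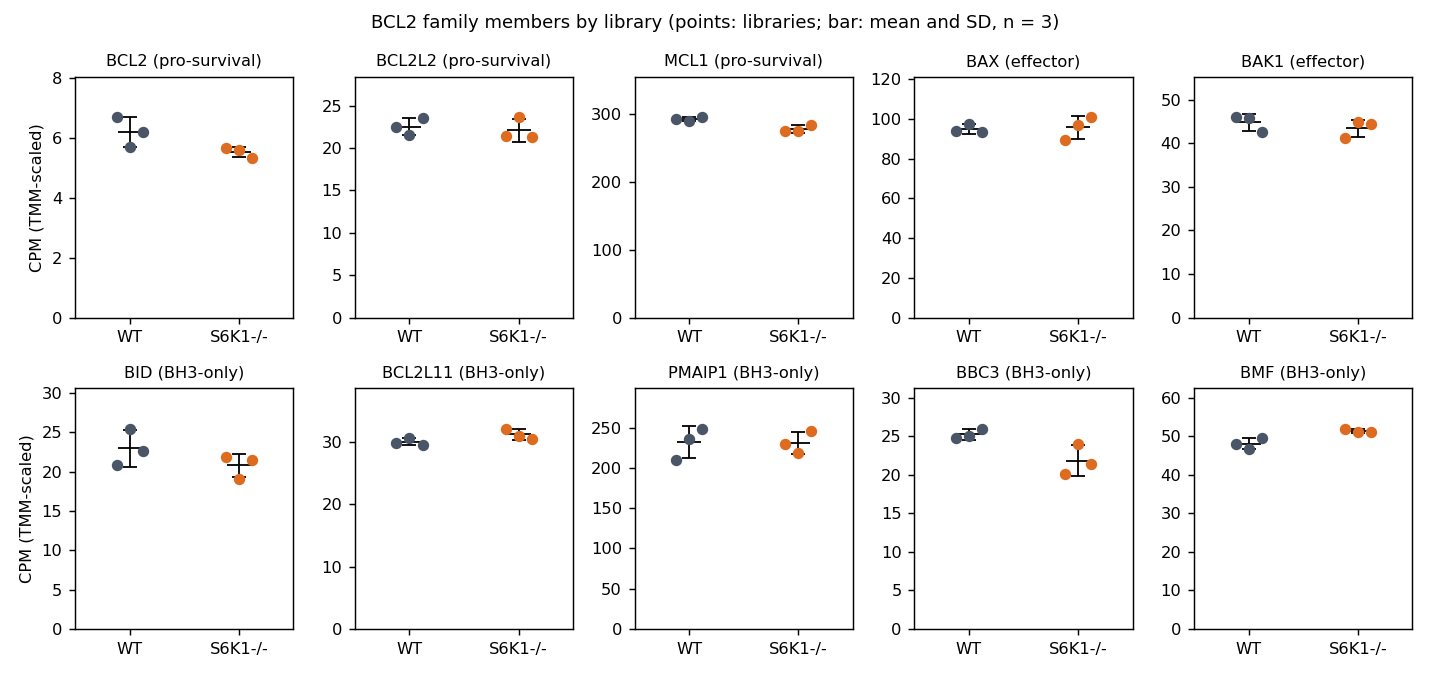
CPM after TMM scaling (vertical axes, each from 0) of the 10 members in the 3 WT and 3 S6K1-/- libraries (points), with the mean and SD. The groups lie at nearly the same height in every panel, and the points of MCL1, BCL2, BBC3 and BMF do not overlap, with BBC3 between 24.7 and 26.0 CPM in WT and between 20.1 and 24.1 CPM in S6K1-/- libraries.

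Non-overlapping groups were seen for 4 members, lower in S6K1-/- hESCs for MCL1, BCL2 and BBC3 and higher for BMF. Over all genes tested 30.7% did not overlap, 16.7% lower and 14.0% higher, so that 4 of 10 is near the background. By role, it held for 2 of 3 pro-survival genes, neither effector and 2 of 5 BH3-only genes.

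Around the members, 78 other genes of apoptosis in 7 lists were examined, of which 68 were tested, and 2 were lower and 1 was higher past the threshold. In either direction 3.96% of all genes passed. The genes that passed were BOK, BCL2L1 and JUN. BOK (chr2:241551424-241574131), an effector-like relative of BAX and BAK1, had 48.5, 49.4 and 49.8 CPM in WT and 83.7, 90.1 and 87.8 CPM in S6K1-/- libraries. The groups lay far apart, and BOK rose with a log2 fold change of 0.83 (SE 0.044, edgeR adjusted p = 3.95e-09), a fold of 1.77. It passed under all 12 alternatives. Per kilobase its mean level of 25.5 CPM lay between those of BAX and BAK1. BOK-AS1, which overlaps 7.5% of its exonic bases on the opposite strand and was named after its values were seen, had a log2 fold change of 1.03 (edgeR adjusted p = 1.37e-04), and the strand setting of the counting is not given in the sources used here.
BCL2L1, which encodes the pro-survival protein BCL-XL, had 63.4, 65.3 and 62.3 CPM in WT and 51.9, 54.8 and 52.0 CPM in S6K1-/- libraries. It was lower, with a log2 fold change of -0.27 (SE 0.044, edgeR adjusted p = 6.88e-04), a fold of 0.831. The groups did not overlap, but with any 1 of the 6 libraries removed BCL2L1 no longer passed, at an edgeR adjusted p from 0.00135 to 0.00741, while the log2 fold change lay between -0.29 and -0.25. Its mean level of 13.9 CPM per kilobase lay below MCL1 and above BCL2L2 and BCL2. The antisense gene ABALON, named after its values were seen, shares 41.3% of BCL2L1's exonic bases and had a log2 fold change of -0.22 (edgeR adjusted p = 0.0407).

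Of the 15 further BCL2 family genes, to which BOK and BCL2L1 belong, 12 were tested, the others gave no call, and BCL2A1, BCL2L10 and BCL2L15 had at most 9 counts in any library. Among 14 transcriptional regulators of BH3-only genes, such as FOXO and E2F genes, 13 were tested and 1 passed. JUN, a subunit of the AP-1 factor, was lower, at 19.6 ± 0.890 CPM against 27.3 ± 1.26 CPM in WT (SD, n = 3 each). Its log2 fold change was -0.48 (edgeR adjusted p = 8.82e-05), and it passed in 11 of 12 alternatives. Without S6K1-/- replicate 3 the log2 fold change was -0.45 and the edgeR adjusted p was 0.00133. MDM4, of the same list, had a log2 fold change of 0.17 (edgeR adjusted p = 0.0312, from 0.0145 to 0.100 over the alternatives).

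Downstream of the mitochondria, 10 apoptosome and caspase genes, 13 genes of mitochondrial permeabilisation and release and 4 of 7 IAP genes were tested, and none of them passed. That call depends on the setting for CASP10, which passed with the replicate number as a block (edgeR adjusted p = 9.83e-04), and for CASP10, CASP8 and BIRC6, which passed without the filter on low counts (edgeR adjusted p = 8.58e-07, 8.30e-04 and 8.41e-06). In the apoptosome and caspase list 8 of 10 log2 fold changes were above 0, as were 9642 of the 19521 over all genes tested. At an edgeR adjusted p under 0.05, 3 of these 10 genes were higher and 0 lower, where 5.47% of all genes were higher and 8.31% lower. CASP10 had 4.85 ± 0.739 CPM in WT and 7.64 ± 0.861 CPM in S6K1-/- hESCs, and CASP8 had 7.22 ± 0.126 and 9.65 ± 0.651 CPM (SD, n = 3 each). Their log2 fold changes were 0.65 (edgeR adjusted p = 0.00220) and 0.42 (edgeR adjusted p = 0.00414). Both encode initiator caspases of the death receptor pathway, and CASP8 cleaves BID. They lie next to each other on chromosome 2, beside CFLAR, which encodes an inhibitor of caspase-8 and whose log2 fold change was 0.11 (SE 0.060). MFN1, a mitochondrial fusion gene, had a log2 fold change of 0.22 (edgeR adjusted p = 0.0118, from 0.00137 to 0.0630 over the alternatives) and MFN2 one of 0.12 (edgeR adjusted p = 0.0712). Of the IAP genes, BIRC6 had a log2 fold change of 0.23 and XIAP, a direct inhibitor of caspases, one of -0.044. WT replicate 2 stood apart for BIRC6, at 109 CPM against 139 and 144 CPM in the other WT libraries, and the log2 fold change was 0.12 without it and 0.31 without WT replicate 3. For XIAP it lay between -0.068 and -0.024 with 1 library left out.
Of 12 death receptor pathway genes 9 were tested and none passed, with 8 of 9 below 0, as were 9879 of the 19521 over all genes tested. At an edgeR adjusted p under 0.05, 2 of the 9 were lower, FAS and RIPK1, where 8.31% of all genes were. Neither held at that level in every alternative, with an adjusted p from 0.00842 to 0.138 for FAS and from 0.0288 to 0.183 for RIPK1 over edgeR and DESeq2 fits, and log2 fold changes from -0.75 to -0.56 and from -0.28 to -0.18. FAS had 2.404 ± 0.305 CPM in WT and 1.51 ± 0.169 CPM in S6K1-/- hESCs (SD, n = 3 each), with a log2 difference of -0.67 (edgeR adjusted p = 0.0183), and RIPK1 had one of -0.23 (edgeR adjusted p = 0.0451). All 7 genes of MCL1 and NOXA turnover were tested and none passed. USP9X, a deubiquitinase of MCL1, had a log2 fold change of -0.17 (edgeR adjusted p = 0.0352, from 0.00242 to 0.195 over the alternatives), and HUWE1, a ubiquitin ligase of MCL1, one of 0.11 (edgeR adjusted p = 0.409). The HUWE1 difference rests on WT replicate 2, at 490.1 CPM against 622.2 and 624.7 CPM in the other WT libraries, and was -0.00048 without it.

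**Figure D4:**
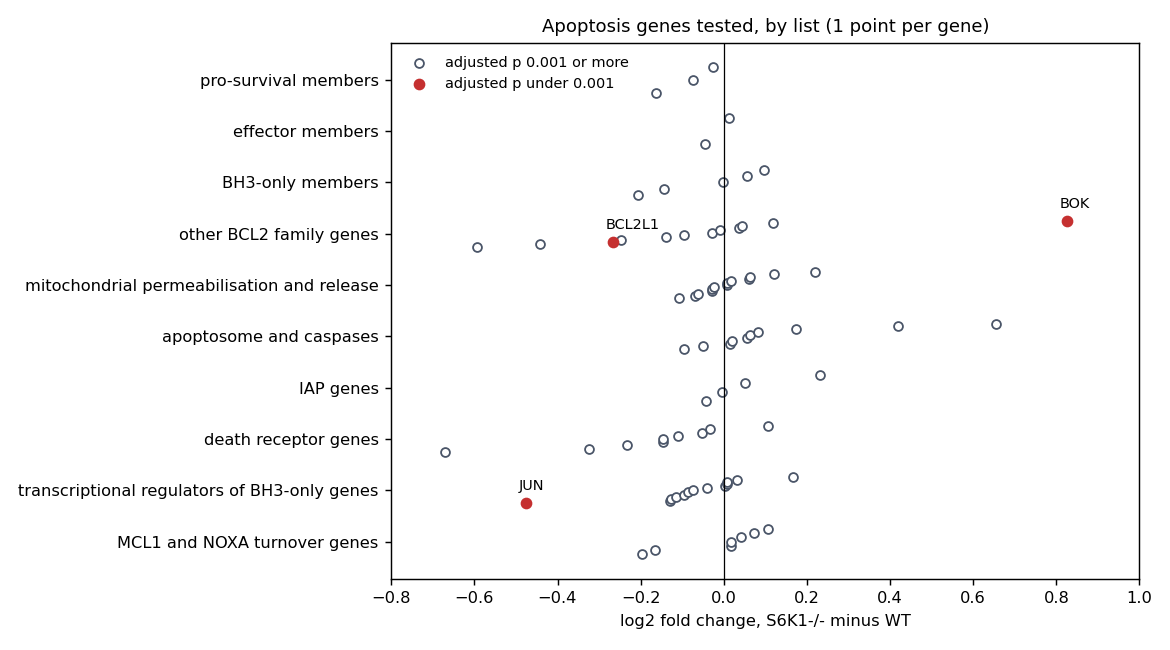
Log2 fold change (S6K1-/- minus WT, horizontal axis) of each member and of each other apoptosis gene tested, 1 point per gene, by list (vertical axis). Filled points passed an adjusted p of 0.001, and these are BOK at 0.83, BCL2L1 at -0.27 and JUN at -0.48, none of them a member.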

How the data were processed

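Bulk RNA was sequenced from WT and S6K1-/- H7 hESCs, 3 libraries each. Per the labels and methods, the authors trimmed reads with Trim Galore 0.6.5, aligned them to GRCh38 with Bowtie2 2.4.5, which does not align across splice junctions so that reads over them may be missing, and deposited featureCounts counts per gene symbol, unnormalised. The annotation release and strand setting are not given in the sources used here. Poly(A) libraries were made with a stranded kit. The authors' DESeq2 table of fold changes and p-values was not used.

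Genes passing filterByExpr (19521) were tested with edgeR 4.0.16 (R 4.3.3), TMM scaling and genotype as the only factor, and DESeq2 1.42.0 was an alternative. Standard errors came from the log2 fold change and the F statistic. The steps were tested on simulated data. GENCODE 44 (GRCh38) gave positions and lengths for 36797 symbols as written and 685 through a RefSeq synonym. The members, lists and naming rule (all members, genes overlapping them, and per list up to 4 genes past the threshold, or the 2 with the smallest p where fewer than 2 passed) were chosen with earlier results of these data known. CFLAR, PABPN1, BAK1P1, ABALON, BOK-AS1 and the markers named were chosen after their values were seen. Library totals were 21896698 to 24473013 counts, and the spread between replicates exceeded counting error for several members, such as PMAIP1 and BID. Same-numbered libraries deviated from their group means with a correlation of at most 0.0316 and were not treated as pairs.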

Additional observations from a re-analysis of the deposited data

How the results depend on the processing

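No member passed an adjusted p of 0.001 under any of 12 alternatives, with adjusted p from 0.0181 to 0.995 over DESeq2's size factors, library totals, DESeq2's Wald test, other filters, the replicate block and each library left out. BBC3 was under 0.05 with library totals (0.0417), without the filter (0.0370) and without S6K1-/- replicate 2 (0.0181), and between 0.0537 and 0.260 in the other 9. Some log2 fold changes turned sign: PMAIP1 had log2 fold changes of 0.0042 and 0.0070 with DESeq2's size factors and Wald test and from -0.060 to 0.059 with a library left out, BAX -0.0076 with library totals and from -0.017 to 0.060, and BCL2L2 from -0.077 to 0.013. HUWE1, at 0.11 with all libraries, lay from -0.00048 to 0.17, with the sign turned only without WT replicate 2. Without the filter on low counts 982 genes were lower and 591 higher, and 4 of the other apoptosis genes were higher, BOK, CASP10, CASP8 and BIRC6. With the replicate number as a block, 2 of those were higher, with CASP10 at an adjusted p of 9.83e-04, and the block changed no call of a member. At an adjusted p under 0.05, 1622 genes were lower and 1067 higher, 5 and 6 of the other apoptosis genes. At 0.01, 939 were lower and 534 higher, and 3 of the other apoptosis genes were higher. With a library left out, from 0 to 1 of the other apoptosis genes were lower, from 313 to 445 of all genes were lower and from 175 to 235 were higher. With the longest transcript as the length, the BH3-only share was 49.96%, the effector share 28.2% and that of PMAIP1 38.1%. The causes were not tested. BCL2, the member with the lowest mean count (138), needed the largest fold to pass the threshold, 1.51, and the part of depth in this was not tested. The counts do not separate isoforms.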
